A study of Mus musculus with 8 samples.

Results

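The mRNAs of 10 Krüppel-like factors, Klf2, Klf3, Klf4, Klf6, Klf7, Klf9, Klf10, Klf11, Klf13 and Klf16, were followed in a table of read counts for 23143 gene symbols. All 10 symbols were found in the table, had counts in every library, and were taken by symbol from the family, of which the table lists 7 further genes. The RNA came from RAW264.7 cells, a mouse macrophage line grown in culture. There was 1 unstimulated culture, given as 0 min, and 7 cultures that had received 100 ng/ml LPS, the bacterial cell wall component that triggers Toll-like receptor 4, and were taken every 15 min up to 90 min and again at 120 min. The series asked how mRNA levels change at close intervals early in this response.

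Krüppel-like factors are DNA-binding proteins that carry a row of C2H2 zinc fingers near the carboxyl end and recognize GC-rich and CACCC elements in promoters and enhancers. Members differ mainly in the part ahead of the fingers, through which some recruit coactivators such as p300 and CBP, others the corepressor CtBP, and others the Sin3 and histone deacetylase complex. In macrophages, Klf2 and Klf4 are known as restraints on inflammatory gene expression, and Klf6 as a factor that acts together with NF-κB.

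Every time point is a single library without a replicate, so no difference in time was checked against the spread between cultures, and a cell line in culture stands for macrophages as a single source. Intervals given with ratios and levels cover counting error only. Total counts lay between 100250892 and 159077286 per library. The ribosomal RNA precursor Rn45s took between 8.18% and 9.11% of the counts at 0, 30, 60 and 120 min, but 13.0%, 16.6%, 20.5% and 15.8% in the 15, 45, 75 and 90 min libraries, and its part in the results below was not tested. The labels name the RNA fraction as cytoplasmic and the molecule as total RNA. Of 8 macrophage markers, 7 were listed in the table, all above a mean of 10 normalized counts (Emr1 is the table's name for Adgre1). The markers of other cell types Col1a1, Col1a2 and Epcam had no count in any library. Less mRNA per cell and fewer cells with that mRNA cannot be told apart in such bulk RNA.

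The genes lie on 10 different chromosomes of the GRCm38 build. Klf6 (NM_011803) spans bases 5861489 to 5870393 of chromosome 13, Klf7 (NM_033563) bases 64029448 to 64122345 of chromosome 1, and Klf2 (NM_008452) bases 72319062 to 72321654 of chromosome 8. Klf4 (NM_010637) is at 55527137 to 55532475 on chromosome 4, Klf10 (NM_013692) at 38291464 to 38300711 on chromosome 15, and Klf11 (NM_178357) at 24651371 to 24662782 on chromosome 12. Klf9 (NM_010638) lies on chromosome 19 from 23141226 to 23168129, and Klf13 (NM_021366) on chromosome 7 from 63886351 to 63938915. Klf16 (NM_078477) occupies 80567121 to 80577296 of chromosome 10, and Klf3 (NM_008453) 64803521 to 64832901 of chromosome 5. Within Klf13, the annotation places the gene E030018B13Rik on the opposite strand, and Klf9 holds Mir1192 on its own strand. Both are listed in the count table, and whether the counting used the strand is not given in the sources used here.

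Promoter sequences from RefSeq (GRCm38.p6), 250 bases before to 50 bases after an annotated start, were matched for 8 of the 10 genes, not for Klf10 and Klf16. The following 5 belong to the genes that were called changed at some time in these libraries, printed 5′ to 3′ on the gene's strand, with capitals marking every match to a motif searched on both strands.
Klf6: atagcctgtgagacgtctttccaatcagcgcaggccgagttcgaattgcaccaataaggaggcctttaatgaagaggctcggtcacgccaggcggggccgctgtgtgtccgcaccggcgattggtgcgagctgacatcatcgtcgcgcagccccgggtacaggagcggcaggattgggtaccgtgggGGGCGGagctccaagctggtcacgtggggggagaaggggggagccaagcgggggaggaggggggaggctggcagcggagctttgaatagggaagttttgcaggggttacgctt
Klf7: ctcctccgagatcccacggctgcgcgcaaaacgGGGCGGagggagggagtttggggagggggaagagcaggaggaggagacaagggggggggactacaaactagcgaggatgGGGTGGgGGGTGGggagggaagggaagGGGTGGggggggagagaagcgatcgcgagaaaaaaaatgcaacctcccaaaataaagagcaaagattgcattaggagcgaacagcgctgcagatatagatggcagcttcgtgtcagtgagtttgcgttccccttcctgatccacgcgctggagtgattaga
Klf2: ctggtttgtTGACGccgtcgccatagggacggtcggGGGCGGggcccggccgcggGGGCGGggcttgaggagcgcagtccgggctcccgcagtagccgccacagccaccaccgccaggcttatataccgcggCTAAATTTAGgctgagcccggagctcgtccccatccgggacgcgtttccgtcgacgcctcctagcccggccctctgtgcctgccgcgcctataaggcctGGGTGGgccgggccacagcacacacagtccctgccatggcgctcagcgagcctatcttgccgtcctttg
Klf4: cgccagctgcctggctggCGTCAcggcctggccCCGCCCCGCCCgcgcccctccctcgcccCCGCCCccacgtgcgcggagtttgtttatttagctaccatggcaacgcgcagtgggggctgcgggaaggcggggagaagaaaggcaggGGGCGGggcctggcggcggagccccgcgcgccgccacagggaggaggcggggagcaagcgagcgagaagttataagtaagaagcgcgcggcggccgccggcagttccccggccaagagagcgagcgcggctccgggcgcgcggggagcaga
Klf11: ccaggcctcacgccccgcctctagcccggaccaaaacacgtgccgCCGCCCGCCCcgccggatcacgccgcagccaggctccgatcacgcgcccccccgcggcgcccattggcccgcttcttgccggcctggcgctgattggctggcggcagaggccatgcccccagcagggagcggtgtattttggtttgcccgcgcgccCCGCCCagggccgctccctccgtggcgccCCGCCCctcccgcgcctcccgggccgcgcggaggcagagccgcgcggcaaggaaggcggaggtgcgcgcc
These windows lie at 5861239 to 5861538 on chromosome 13 (plus strand, Klf6), 64121340 to 64121639 on chromosome 1 (minus strand, Klf7), 72318812 to 72319111 on chromosome 8 (plus strand, Klf2), 55532426 to 55532725 on chromosome 4 (minus strand, Klf4) and 24651121 to 24651420 on chromosome 12 (plus strand, Klf11). The Klf7 window belongs to a start inside the outer end of the gene given above.

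The GC box (GGGCGG), to which Sp and Krüppel-like proteins bind, was present in 7 of the 8 windows, against 35.7% of 32851 promoters of the same length. Klf4 and Klf11 had 4 matches each, some of them overlapping by a base or more, Klf2 had 2, and Klf6 and Klf7 had 1 each. The CACCC box (CCACCC) was found in 4 of the 8 windows (31.5% of all promoters), with 3 matches in Klf7 and 1 in Klf2. The CRE core (TGACG) was found in 5 of 8 (20.8% of all), Klf2 and Klf4 among them. A site for MEF2, the factor through which the ERK5 kinase cascade is known to act on Klf2, was matched in Klf2 alone among the 8 (3.19% of all promoters), with its first base at position -118 counted from the start. The AP-1 letters TGANTCA were found in Klf9 alone (7.81% of all), and the CArG box (1.63% of all) and the κB site (4.51% of all) in none of the 8. The GC content of the 8 windows ran from 58.33% to 77.67%, where the median over all promoters was 52.67%. These matches describe letters in a window and were not tested as binding sites.

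Counts were divided by a size factor per library, and these values are called normalized counts. A gene was called higher or lower where the log2 ratio of 2 libraries passed 0.5 in size (a ratio of 1.414) with an unadjusted p below 0.05 in an exact negative binomial test, the rule of the study. The test compares libraries and not conditions, so the calls alone are given. Shares of all genes are taken over the genes with at least 1 count in the 2 libraries. Such genes include many with a mean below 10 normalized counts, whereas the lowest mean among the members was 144 (Klf3). The shares are thus not matched for level. All comparisons with 0 min share the 1 unstimulated library. The members and the gene lists were chosen with earlier results of these data known. Counts of called genes beside the share of all genes are therefore a description and not a test.

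The 10 genes followed different courses. Klf6 rose and stayed up, Klf7 rose late, Klf2 rose at once and then fell below its starting level, Klf11 rose briefly and fell, Klf10 and Klf4 fell, and Klf3, Klf9, Klf13 and Klf16 were called at no time. The highest value was reached after 15 min by Klf3, Klf4, Klf10 and Klf13, at 30 min by Klf16, at 45 min by Klf2, Klf9 and Klf11, at 60 min by Klf6 and at 120 min by Klf7. Highest over lowest value was 8.78 for Klf11, 5.56 for Klf6, 5.55 for Klf10, 5.45 for Klf2, 3.53 for Klf4, 3.21 for Klf7, 2.20 for Klf3, 1.54 for Klf13, 1.51 for Klf9 and 1.28 for Klf16.

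**Figure D1:**
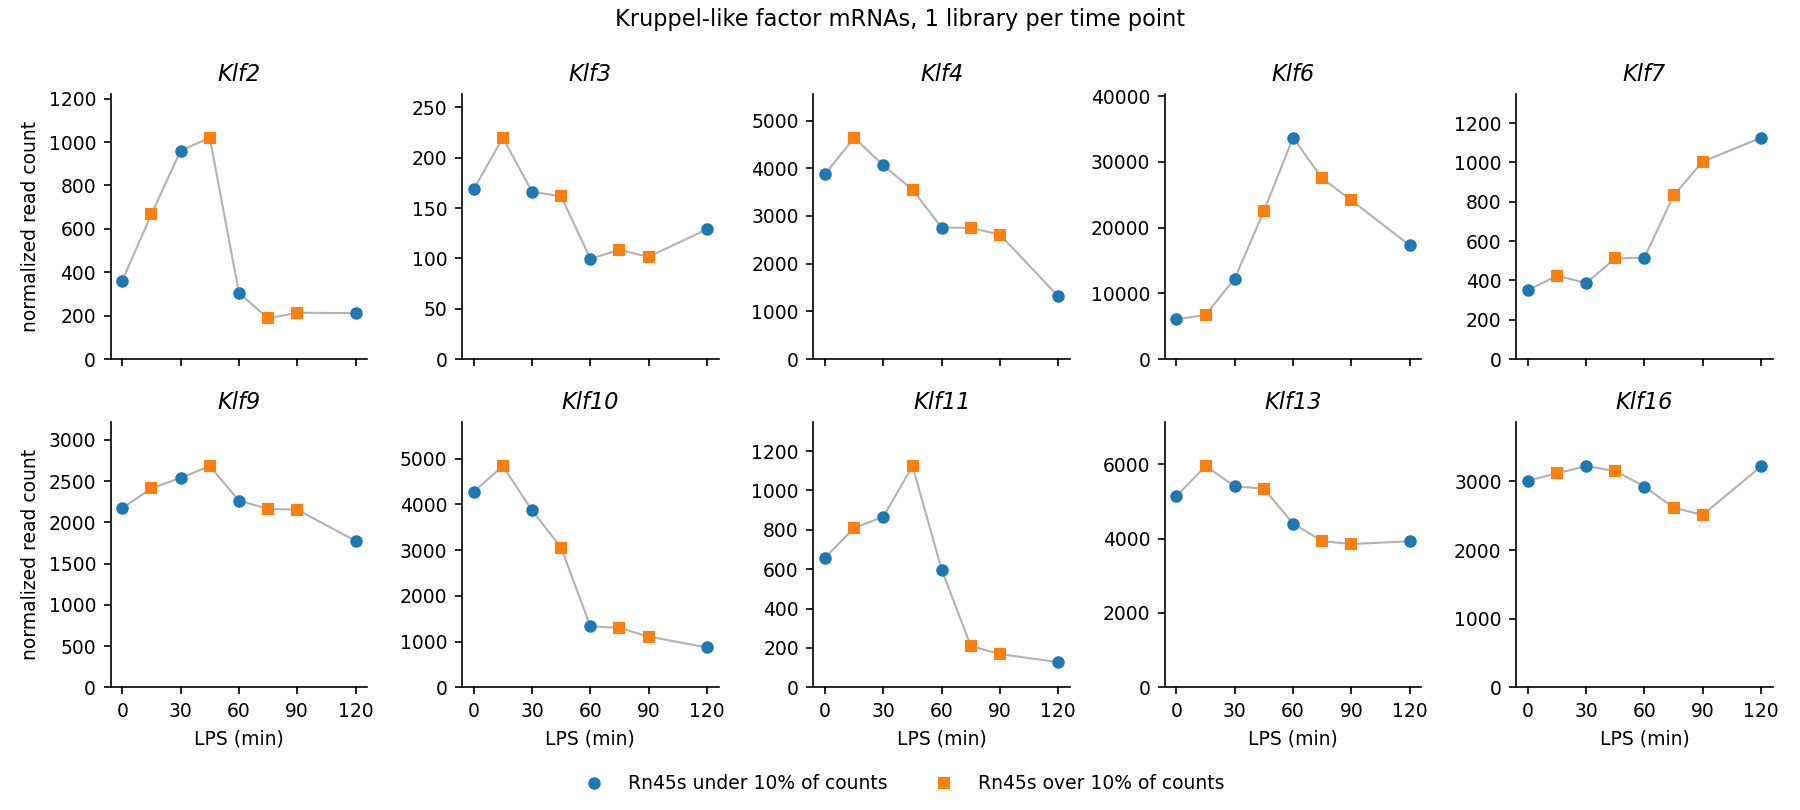
Normalized read counts of the 10 Krüppel-like factors (vertical axes, each with its own scale from 0) against minutes of LPS (horizontal axis), 1 library per point, with squares for the 4 libraries in which Rn45s took over 10% of the counts. Klf6 climbs to 33655 at 60 min, Klf7 to 1126 at 120 min, and Klf2 drops from 1019.9 at 45 min to 305 at 60 min.

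In the first 45 min the calls were few and upward. At 15 min, 1 of the 10 genes was called higher (Klf2), where 0.295% of all genes tested were, and none lower, where 0.164% were. At 30 min, 2 were called higher (Klf2 and Klf6) against 1.14% of all genes, and none lower against 0.202%. At 45 min, 3 were called higher (Klf2, Klf6 and Klf11) against 3.8% of all genes, and none lower against 1.5%. The ratio to 0 min at 15 min lay between 1.03 for Klf16 and 1.85 for Klf2, and with total counts as the scale it was above 1 for all but Klf16. The median log2 ratio of the 10 genes was 0.23, 0.12 and 0.18 at these 3 times, beside 0.02, 0.01 and -0.00 over the 12166 genes with a mean of at least 10 normalized counts.

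From 60 min on, falls joined the rises. At 60 min, 1 gene was called higher (Klf6, background 3.43%) and 1 lower (Klf10, background 2.36%). At 75 min, Klf6 and Klf7 were called higher (4.77% of all genes were) and Klf2, Klf10 and Klf11 lower (3.48% of all were). At 90 min, the same 2 were higher (background 5.79%) and Klf10 and Klf11 lower (background 4.42%). At 120 min, Klf6 and Klf7 were again higher (background 7.63%), while 4 of 10 were lower, Klf2, Klf4, Klf10 and Klf11, where 6.7% of all genes were. Over the 10 genes the median log2 ratio was -0.18, -0.44, -0.49 and -0.39 in these 4 libraries, while that over all genes with a mean of at least 10 stayed between -0.01 and 0.00.

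Between later libraries, Klf2, Klf10 and Klf11 were called lower at 75 min than at 45 min, 3 of 10 against 2.29% of all genes. At 120 min compared with 60 min, Klf7 was called higher (1 of 10, background 3.61%) and Klf4, Klf6 and Klf11 lower (3 of 10, background 3.71%).

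**Figure D2:**
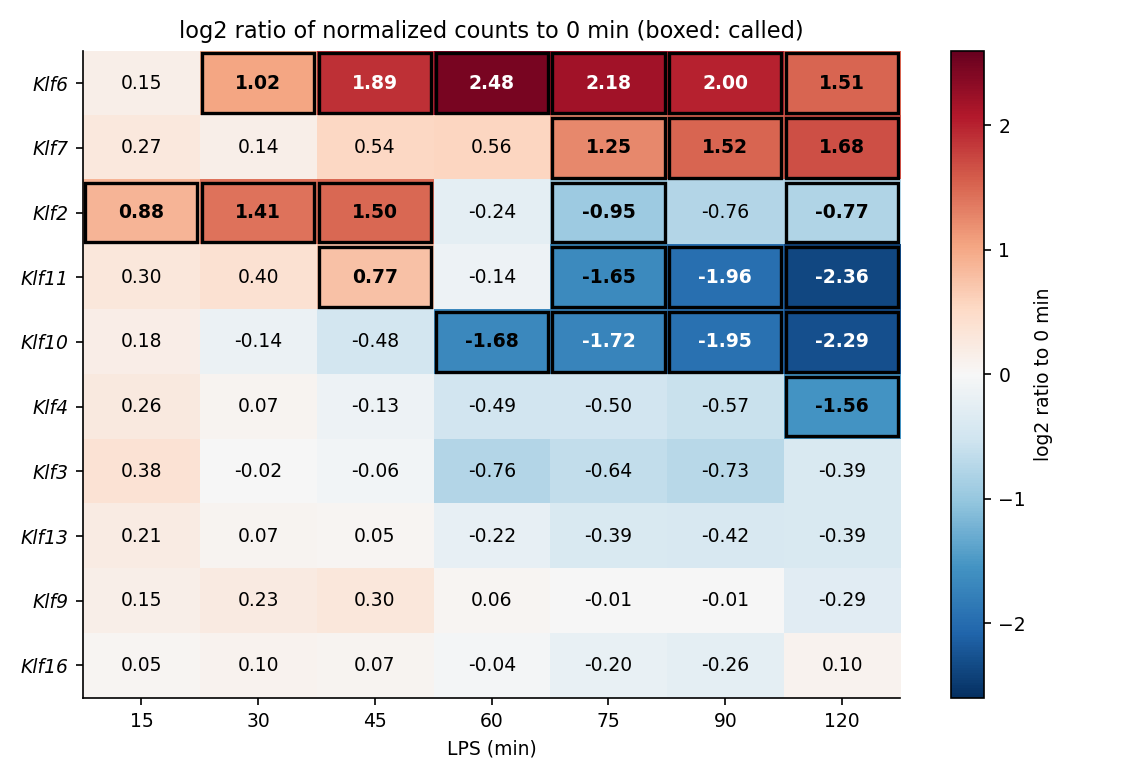
Log2 ratio of normalized counts to the 0 min library for the 10 genes (vertical axis) at each time with LPS (horizontal axis, min), with red for higher, blue for lower and a black box around each value that was called. Klf6 and Klf7 hold the boxed red values after 45 min, and the boxed blue values belong to Klf2, Klf4, Klf10 and Klf11.

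Klf6 is a broadly expressed member of the family and the one with the largest rise here. In time order, the 8 libraries held 6051, 6703, 12249, 22484, 33655, 27481, 24143 and 17289 normalized counts of Klf6. The value climbed at each step up to 60 min and was lower at each step after it, yet all times from 30 min on remained above the resting level and were called. The ratio to 0 min was 2.02 (95% interval 1.97 to 2.08) at 30 min, 5.56 (5.42 to 5.71) at 60 min and 2.86 (2.78 to 2.94) at 120 min. From 60 to 120 min the ratio was 0.514 (0.505 to 0.522), and both of these libraries had an Rn45s share under 10%. The call at 30 min was lost after Benjamini-Hochberg adjustment, as was the call at 120 against 60 min, which a fold limit of log2 1 also ended.

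Klf7, known from neuronal development and from inflammation in fat tissue, rose in the second hour. Its normalized counts were 351, 423, 387, 512 and 516 in the first 5 libraries, and 832, 1004 and 1126 in the last 3. The largest single step was from 60 to 75 min, with a ratio of 1.61 (1.44 to 1.81). Compared with 0 min, the ratio was 1.47 (1.29 to 1.67) at 60 min, which was not called, 2.37 (2.09 to 2.70) at 75 min and 3.21 (2.87 to 3.59) at 120 min. Between 60 and 120 min, libraries with a similar Rn45s share, the ratio was 2.18 (1.98 to 2.41), a call that was lost after Benjamini-Hochberg adjustment. Klf7 was the member that ended at its own highest value.

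Klf2, a factor of quiescence in lymphocytes, monocytes and endothelium, was the earliest to rise. Its normalized counts were 362, 668, 961 and 1019.9 up to 45 min, and then 305, 187, 213 and 212 from 60 min on. The 3 values from 15 to 45 min lay above all others, and the last 3 lay below the resting value. The ratio to 0 min was 1.85 (1.63 to 2.09) at 15 min and 2.82 (2.51 to 3.17) at 45 min. Within the next 15 min it dropped to 0.844 (0.730 to 0.975), so that the step from 45 to 60 min had a ratio of 0.299 (0.264 to 0.340). Among the libraries with little Rn45s, the step from 30 to 60 min had a similar ratio, 0.318 (0.281 to 0.359).

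The later values of Klf2 were 0.518 (0.423 to 0.630) times the 0 min value at 75 min, 0.589 (0.490 to 0.706) at 90 min and 0.585 (0.499 to 0.684) at 120 min, of which the first and the last were called. These rest on 133 to 261 counts per library and sit close to the limits. The 120 min call was lost when the 30 min library was left out of the size factors and dispersion, when the 0, 30, 60 and 120 min libraries were used alone, and with a fold limit of log2 1, Benjamini-Hochberg adjustment or the edgeR dispersion. The last 3 settings also ended the calls at 15 and 75 min, and total counts as the scale ended the call at 15 min, whereas the calls at 30 and 45 min remained under each setting run.

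Klf4, best known as a pluripotency factor and as a driver of monocyte differentiation, declined in a different rhythm. Its normalized counts were 3877, 4639, 4061 and 3548 in the first 4 libraries, 2758, 2749 and 2608 in those of 60, 75 and 90 min, and 1314 after 120 min. The values from 60 to 90 min differed little from each other and all lay below the first 4. With ratios of 0.711, 0.709 and 0.673 to 0 min they were not called. The 120 min value was called, at a ratio of 0.339 (0.320 to 0.359), and the step from 90 to 120 min alone was 0.504 (0.472 to 0.538). This step leads from a library with 15.8% Rn45s to one with 9.11%. Between 60 and 120 min, libraries with 8.27% and 9.11%, the ratio was 0.476 (0.448 to 0.506), a call that was lost after Benjamini-Hochberg adjustment.

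Klf10 and Klf11 are the TGF-β-inducible early genes, close relatives that repress transcription through Sin3. Klf10 had 4275, 4837, 3867 and 3055 normalized counts up to 45 min, and then 1335, 1298, 1109.6 and 872 from 60 min on. The first 4 libraries were all above the last 4. The ratio to 0 min was 0.715 (0.682 to 0.749) at 45 min, not called, 0.312 (0.295 to 0.331) at 60 min and 0.204 (0.191 to 0.218) at 120 min. The drop was concentrated between 45 and 60 min, a step with a ratio of 0.437 (0.410 to 0.466). From 30 to 60 min, both with Rn45s under 10%, the ratio was 0.345 (0.325 to 0.366).

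Klf11 reached its low level about 15 min later than Klf10 and after a small rise. Its normalized counts were 659, 809.8, 866 and 1124 up to 45 min, 597 at 60 min, and 209.8, 169 and 128 in the last 3 libraries. The 45 min value was the highest, the 60 min value was close to the resting one, and the last 3 were the lowest. Relative to 0 min, the 45 min value was 1.71 times as high (1.55 to 1.88), the 60 min value 0.907 times (0.817 to 1.01), and later values were 0.319 (0.266 to 0.380) at 75 min and 0.194 (0.163 to 0.231) at 120 min. The step from 60 to 75 min had a ratio of 0.351 (0.292 to 0.420), and that from 60 to 120 min one of 0.214 (0.179 to 0.255). The rise at 45 min was no longer called with total counts with or without Rn45s as the scale, a fold limit of log2 1, Benjamini-Hochberg adjustment or the edgeR dispersion, while the falls from 75 min on were called in all of these.

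The remaining 3 members of the Sin3-binding branch varied less. Klf13, described in T lymphocytes as an activator of the chemokine gene Ccl5, had between 3855 and 5952 normalized counts, with ratios to 0 min of 1.16 at 15 min, 0.857 at 60 min and 0.764 at 120 min. Its 4 values from 60 min on were all lower than its 4 earlier ones, without passing the fold limit. Klf9, a glucocorticoid-responsive member, ranged from 1777 at 120 min to 2684 at 45 min, and its ratio at 120 min was 0.818 (0.772 to 0.866). Klf16 was the flattest, with 2513 to 3224 normalized counts and ratios between 0.834 at 90 min and 1.07 at 30 and 120 min. The sign of the log2 ratio was turned by total counts as the scale for Klf9 at 60 min, Klf13 at 45 min and Klf16 at 15, 45 and 120 min, so the side of 1 on which these ratios lie depends on the scale.

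Klf3, a repressor that binds CtBP, had the lowest level per length of the 10 at rest. Its normalized counts were 169, 219.8, 166 and 162 up to 45 min and 99.7, 108, 102 and 129 afterwards. The last 4 values lay below the first 4. The ratio to 0 min was 0.592 (0.465 to 0.750) at 60 min and 0.603 (0.459 to 0.785) at 90 min, past the fold limit but not called at 77 to 231 counts per library. With total counts as the scale, Klf3 and Klf4 were called lower at 75 and 90 min.

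Levels of different genes were compared as rpkm, the read count scaled to the kilobases of unique 58-base positions of the gene and to the total count of the library. At 0 min, Klf6 (12.95, 95% interval 12.7 to 13.3) and Klf10 (12.77, 12.4 to 13.1) stood at the top and could not be told apart by counting error. They were followed by Klf4 (11.64), Klf16 (10.27), Klf13 (7.24), Klf9 (4.38), Klf2 (1.80), Klf11 (1.46), Klf7 (0.411) and Klf3 (0.291), each separated from the next by its interval. The order was different with LPS. At 60 min Klf6 stood at 67.42 rpkm, with Klf16 next at 9.34, and at 120 min Klf6 was at 32.17 and Klf16 at 9.54, while Klf10 was at 2.26. Klf7 (1.15) was above Klf2 (0.917) at 120 min, and Klf11 (0.247) and Klf3 (0.194) came last with overlapping intervals.

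The summed level of the 10 mRNAs was 63.2, 69.26, 79.53, 87.86 and 101.7 rpkm in the first 5 libraries and 73.31, 70.08 and 57.83 rpkm in the last 3, so that it was highest at 60 min. Klf6 made up 20.5% of this sum at rest, 66.3% at 60 min and 55.6% at 120 min. Rpkm values divide by total counts, Rn45s included. Compared with size factors, this lowers ratios to 0 min by up to 0.33 on the log2 scale (at 75 min). At 120 min the log2 shift was -0.20, and whether the sum there lies below that at 0 min depends on the scale. The shares within a library are the same on either scale.

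**Figure D3:**
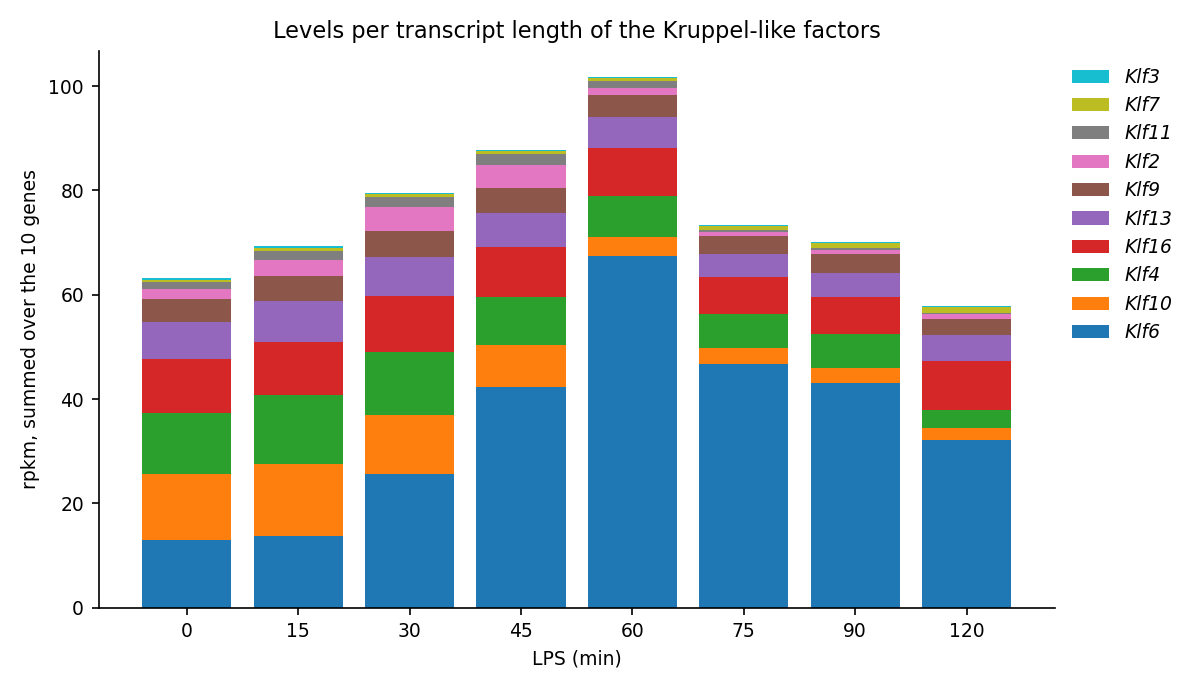
Level per length (rpkm, vertical axis) of the 10 genes stacked for each library (horizontal axis, minutes of LPS), with 1 library per bar. With total counts as the scale, the summed bar goes from 63.2 at 0 min to 101.7 at 60 min and 57.83 at 120 min. The Klf6 segment grows from 20.5% to 66.3% of the bar at 60 min while the Klf10 segment shrinks.

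The courses of the 10 genes were also set against each other, with Pearson's r of log2 normalized counts over the same 8 libraries as a description. The points share libraries and scale, and neighbouring times are not independent. Klf6 and Klf7 had a positive r with each other (0.598) and a negative r with each of the other 8 members. The most alike pair was Klf10 and Klf13 (0.956), and the most opposed was Klf7 and Klf11 (-0.919).

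Among 10494 genes with a mean of at least 100 normalized counts, the course most like that of Klf2 was that of Fos (r = 0.987 over 8 libraries), which encodes a subunit of AP-1. Fos went to 6.20 times its 0 min value at 45 min, 0.921 at 60 min and 0.240 at 120 min, larger swings at the same times. Zfp942 and Ttbk2 came next. For Klf10 it was Dusp6 (0.998), a phosphatase that inactivates ERK, with ratios of 0.572 at 45 min, 0.226 at 60 min and 0.118 at 120 min, followed by Cbx8 and Zbtb42. Klf7 ran most like Nr1d1 (0.995), a circadian repressor, whose ratio was 1.37 at 60 min, 2.39 at 75 min and 3.53 at 120 min, then like Micall1 and Furin.

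The course nearest to that of Klf6 was Hexim1 (0.996), an inhibitor of the elongation factor P-TEFb, at 1.98 times its 0 min value at 60 min, and then Ncaph and Ing5. Next to Klf4 were Sla (0.996), Acad11 and Kdelc2, and next to Klf11 were Cyth1 (0.997) and Zmym6. Klf3 was closest to Gpr65 (0.975), Tbkbp1 and Isl2, Klf9 to Tmf1 (0.985), Mtmr6 and Arhgap17, Klf13 to Cep97 (0.985), Hmgxb4 and Il16, and Klf16 to Adcy7 (0.966), Arhgap23 and Akna. Pearson's r does not measure the size of a change. At 120 min Cyth1 stood at 0.682 and Acad11 at 0.690 times the 0 min value, beside 0.194 for Klf11 and 0.339 for Klf4. At 60 min Ncaph was at 1.21, beside 5.56 for Klf6. Fos and Dusp6, given above, were changed more than Klf2 and Klf10 at 120 min. All these genes were the nearest of a large number over few points, and no member was among another's nearest 3.

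**Figure D4:**
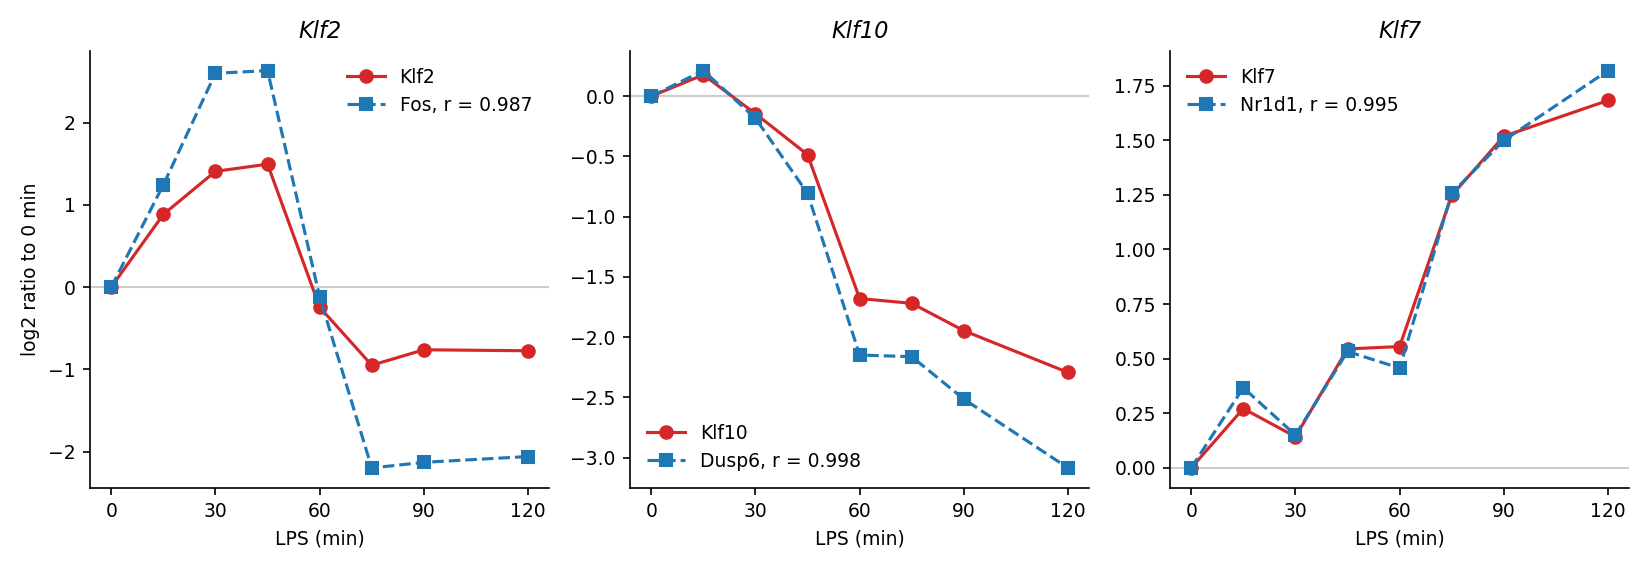
Log2 ratio to the 0 min library (vertical axes) against minutes of LPS (horizontal axes) for Klf2, Klf10 and Klf7 (red circles, solid lines), each with the gene whose course was most like it (blue squares, dashed lines), 1 library per point. Fos turns at the same times as Klf2 with larger swings, Dusp6 falls with Klf10, and Nr1d1 runs close to Klf7.

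The other 7 genes of the family took little part. Klf8, like Klf3 a CtBP-binding repressor, had 652 to 933 normalized counts and was not called at any time. Klf5, which is prominent in epithelia, had no count, which allows up to 3 counts in each library, and Klf1, Klf12, Klf14, Klf15 and Klf17 all stayed below a mean of 10 normalized counts. None of the 7 was called in any of the comparisons. Of the 9 related Sp factors, 6 passed that mean. Sp2 (2.03 times the 0 min value) and Sp4 (1.86 times) were called higher at 120 min and Sp9 (0.373 times) lower, 2 and 1 of 9 where 7.63% and 6.7% of all genes were. Sp1, the founding member of that family, had a ratio of 1.47 and was not called.

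At 120 min, 1 of 10 cofactors and 2 of 11 upstream and turnover genes were called higher and none lower, where 7.63% of all genes were higher and 6.7% lower. The median log2 ratio was 0.04 over the cofactors and 0.03 over the upstream and turnover genes. All of the cofactors were expressed. Crebbp and Ep300, which encode the acetyltransferases CBP and p300, were called higher at 45 min (1.81 and 1.75 times). These were 2 of 10, against 3.8% of all genes. At 60 min neither was called (1.38 and 1.25 times). The Rn45s share was 16.6% at 45 min and 8.27% at 60 min, and its part was not tested. Crebbp alone was called higher at 75 min (1.90 times), 90 min (1.95 times) and 120 min (2.21 times). Sin3a, Sin3b, Ctbp1, Ctbp2, Kat2b and the deacetylases Hdac1, Hdac2 and Hdac3 were not called in any comparison. Of 11 genes of the ERK5 and MEF2 route, of other upstream factors and of protein turnover, Srf rose from 45 min on and stood at 2.40 times its 0 min value at 120 min. Map3k2, a kinase at the head of the ERK5 route, was called higher at 90 and 120 min (1.62 times). Mef2a, Mef2c, Mef2d, Mapk7 and the ubiquitin ligase gene Wwp1 were among the 9 that were not called.

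In the TGF-β pathway, from which Klf10 and Klf11 take their other names, 2 of 9 genes were called higher and 2 lower at 120 min, where 7.63% and 6.7% of all genes were, and the median log2 ratio of the 9 was 0.03. The ligand Tgfb1 was higher at 120 min (1.82 times), and the receptors Tgfbr2 (0.443 times) and Tgfbr1 (0.573 times) were lower. Skil, a repressor of SMAD proteins, was higher from 45 min on and at 2.57 times at 120 min, and Smad7, an inhibitor of the pathway, was called higher at 60 and 75 min (1.82 times at 60 min). Smad2, Smad3, Smad4 and Ski were not called.

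Among genes described elsewhere as targets of these factors, Cdkn1a, a cell cycle inhibitor and reported target of Klf4 and Klf6, was called higher from 30 min on and reached 5.22 times its 0 min value at 120 min. S1pr1, a sphingosine phosphate receptor and reported target of Klf2 in lymphocytes, was called lower from 60 min on, at 0.425 times at 60 min and 0.0970 times at 120 min. Lgals3 and Nos3 were not called. Thbd and Arg1 were below a mean of 10 normalized counts. For comparison, the LPS-responsive genes Tnf, Il1b and Nfkbia were called higher at each time from 30 min on.

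All 10 members had at least 1 AUUUA pentamer, the core of AU-rich elements that mark short-lived mRNAs, in the annotated 3′UTR (GRCm38), as did 67.4% of 11247 genes with a 3′UTR and a mean of at least 10 normalized counts. Per kilobase, Klf7 had the most (2.87, from 18 pentamers) and Klf10 came next (2.68, from 4), followed by Klf9 (2.48), Klf6 (2.25), Klf16 (2.23), Klf3 (1.87), Klf11 (1.72), Klf2 (1.36), Klf4 (1.02) and Klf13 (0.582). The median over all these genes was 1.26. Their median 3′UTR had 1025 bases, which Klf2 (737) and Klf4 (982) fell short of and the other members, up to Klf7 (6266), exceeded. Presence of at least 1 pentamer is not corrected for this length. Of the 4 genes called lower at 120 min, Klf10 and Klf11 had 4 pentamers each and Klf2 and Klf4 had 1 each. The longer element UUAUUUAUU was found in Klf16 alone, the flattest of the 10, and in 7.44% of all these genes. The stretch printed here, bases 80568231 to 80568251 of chromosome 10 on the minus strand, holds the element in capitals with 6 bases on either side.
Klf16: aagaaaUUAUUUAUUguccuc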

How the data were processed

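RNA of 8 RAW264.7 cultures, 1 per time point, was depleted of ribosomal RNA with Ribo-Zero and sequenced by the authors. Per the labels and the methods, Bowtie aligned the 58-base reads to mm10 RefSeq transcripts with at most 2 mismatches, and reads that matched more than 1 gene symbol were dropped. The submitters' notes name CASAVA 1.8.2 and DESeq 1.10.1. The authors deposited raw counts per gene symbol, without normalization, for 23143 genes, 6176 of them with no count. Total counts were 100250892 to 159077286.

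From the counts, median-of-ratios size factors (0.7101 to 1.2339) and a parametric dispersion trend over the 8 libraries treated as replicates (0.02873 plus 0.8534 over the mean) were computed in Python 3.11.15 with scipy 1.17.1 and numpy 2.4.6, after the study's settings. All pairs were tested over all genes with at least 1 count. A quasi-likelihood fit could not be made with 1 library per time point. On simulated data, 200 of 200 genes changed 4-fold were recovered at 60 min against 0 min, in a step over 23143 genes. The changed genes had a mean of at least 100 normalized counts, and the simulated dispersion was lower than that fitted here. Recovery of smaller changes was not simulated. Ratios carry exact conditional binomial and rpkm values exact Poisson 95% intervals. Unique 58-mers, 3′UTRs and coordinates come from GENCODE vM21 and RefSeq (GRCm38). Alternative scales and dispersions used edgeR 4.0.16 in R 4.3.3.

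The 10 members and all gene lists were chosen with earlier results of these data known. Named genes are the members, list genes called in at least 1 comparison (at most 5 per list by log2 ratio), and the 3 genes nearest each member in Pearson's r of log2(normalized count + 1). Other genes are named to account for a list, and were chosen after their values were seen. Protein features were not analysed here. Results on 2 of the genes these rules select are not reported here.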

Additional observations from a re-analysis of the deposited data

How the results depend on the processing

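With 1 library per time point, depth limits counting error but says nothing of the spread between cultures. No paired analysis was possible because no group has a second library. Of 144 counts of called members under other settings, 131 stayed within 1.5 times of the reported count. This includes counts of 0 that stayed 0, and it compares how many genes were called and not which. With total counts as the scale, 0 members were higher at 15 min (1 in the report), and 5 were lower at both 75 and 90 min (3 and 2 in the report). A fold limit of log2 1 and the edgeR dispersion also left 0 higher at 15 min. Benjamini-Hochberg adjustment left 0 higher at 15 min, 1 at 30 min and, at 120 against 60 min, 0 higher and 1 lower. By fold alone in genes with a mean of at least 10, 2 were higher and 2 lower at 60 min, 5 lower at 90 min, and 5 lower at 120 against 60 min. Klf10 at 75 against 45 min was lost with Benjamini-Hochberg adjustment. Leaving each library outside a pair out of the size factors and dispersion, a setting chosen after seeing the data, kept all 102 counts within 1.5 times. The 2 libraries compared were always kept, so this setting says nothing of their own spread. It gave 2 to 3 lower at 90 min, with Klf2 added without the 120 min library, and 3 to 4 lower at 120 min, where Klf2 was lost without the 30 min library. No called ratio changed sign under another scale. Total counts moved the log2 ratios to 0 min by -0.07, -0.03, -0.19, -0.10, -0.33, -0.26 and -0.20 in time order from 15 min. The signs that turned with total counts were those of Klf9 at 60 min (0.06 to -0.04), Klf13 at 45 min (0.05 to -0.13), and Klf16 at 15 min (0.05 to -0.02), 45 min (0.07 to -0.12) and 120 min (0.10 to -0.11). TMM factors and a pseudocount of 1 kept all 70 log2 ratios within the counting interval. Total counts moved 41 of the 70 outside it, and total counts without Rn45s moved 26. At 0 min, size factors as the scale moved 9 of the 10 rpkm values outside their counting interval. Total counts without Rn45s also turned the sign of Klf9 at 60 min (0.06 to -0.04) and Klf16 at 120 min (0.10 to -0.10).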

Other observations

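Klf17, a gene of the family known from germ cells and the early embryo, had 2, 2, 4, 6, 9, 7, 8 and 14 counts in the 8 libraries in time order. It was not called in any comparison, stayed below a mean of 10 normalized counts, and was singled out after its values were seen.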
